A study of Mus musculus with 108 samples.

Results

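The choroid plexus genes Ttr, Kl, Folr1, Clic6, Aqp1, Otx2, Enpp2, Sostdc1, Kcne2 and Slc4a5 were followed through brain regions dissected from WT and Cul3+/- mice. These 10 genes were taken from a list of choroid plexus markers and found by symbol among the 53465 genes of the count table, and all 10 were present. The mice carried a germline 1 bp insertion in exon 6 of Cul3 on 1 allele in every tissue (Cul3+/-, written HET in the plots) or were wild type (WT), on a strain background labelled C56Bl/6N. RNA came from dissected CX, the cerebral cortex, HIP, the hippocampus, and CB, the cerebellum, in embryos (E17.5), at postnatal day 7 (P7) and in adults (P35), which gave 9 datasets of 1 period and 1 region and 18 groups. Each library held 1 region of 1 mouse, and 6 WT and 6 Cul3+/- mice were compared at E17.5 and at P7 and 5 of each at P35, 102 of 108 libraries. The other 6 libraries came from 2 adult mice whose genotype is given in opposite ways by the labels and by the study's own quality table, and they were left out. Replicate numbers are those of the library in its own region, and they name different mice across regions for 7 of 12 mice at P7 and 4 of 12 at P35, so regions were linked by the mouse name.

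The choroid plexus is a sheet of epithelial cells on a vascular core that hangs into the brain ventricles and makes cerebrospinal fluid. It lies against the hippocampus in the lateral ventricle and against the cerebellum in the fourth ventricle, while the outer cortex does not touch it. Its epithelium secretes carrier proteins such as transthyretin, moves water and ions from blood to fluid through channels and transporters, and carries folate and other nutrients inward. Several of these genes are also used by other cells of the brain, such as Enpp2 by oligodendrocytes and Kl by neurons, so a level in dissected tissue may hold more than 1 source.

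Levels are given as CPM, counts scaled to a common library total after TMM normalization. The compared libraries held between 15126093 and 44411259 counts, with a median of 32614808. Cul3 was at 161 to 218 CPM in the 51 WT libraries and at 85.5 to 125 CPM in the 51 Cul3+/- libraries, with no overlap. In the adult mice left out, Cul3 was at 196, 203 and 227 CPM in the 3 libraries labelled WT and at 95.7, 98.98 and 121 CPM in the 3 labelled Cul3+/-, the side on which their labels put them. In the 9 datasets its log2 fold change lay between −0.99 and −0.74 (SE 0.033 to 0.066, adjusted p 8.80e-09 to 0.00263 by edgeR's quasi-likelihood test with Benjamini-Hochberg adjustment). Genes that mark cortex and hippocampus summed to between 340 and 2457 CPM in CX and HIP and to between 92.8 and 350 CPM in CB. Genes that mark cerebellum summed to between 673 and 1895 CPM in CB and to between 13.7 and 320 CPM in CX and HIP.

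The start regions of members are shown because the members moved together between libraries. RefSeq's promoter table for GRCm38.p6 held 5 of the 10 members in 9 windows. The sequences printed here hold the 250 bases before an annotated start, read 5′ to 3′ on the strand of the gene. Both strands were searched for TAATCC, the core bound by OTX and related homeobox factors, which reads GGATTA on the opposite strand. They were also searched for TGTTTAC, a core bound by forkhead factors, and capitals mark a match.
Kl, chr5:150952357-150952606, plus strand: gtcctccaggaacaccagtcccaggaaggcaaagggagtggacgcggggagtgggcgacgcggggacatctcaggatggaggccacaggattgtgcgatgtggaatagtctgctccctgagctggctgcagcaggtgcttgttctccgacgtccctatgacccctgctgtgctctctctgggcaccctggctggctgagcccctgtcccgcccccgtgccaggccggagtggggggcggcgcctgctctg
Aqp1, chr6:55336049-55336298, plus strand: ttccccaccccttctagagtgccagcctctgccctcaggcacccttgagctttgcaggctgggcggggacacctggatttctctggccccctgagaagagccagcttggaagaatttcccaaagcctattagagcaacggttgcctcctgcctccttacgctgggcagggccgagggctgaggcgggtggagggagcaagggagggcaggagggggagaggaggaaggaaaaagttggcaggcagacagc
Slc4a5, chr6:83237125-83237374, plus strand: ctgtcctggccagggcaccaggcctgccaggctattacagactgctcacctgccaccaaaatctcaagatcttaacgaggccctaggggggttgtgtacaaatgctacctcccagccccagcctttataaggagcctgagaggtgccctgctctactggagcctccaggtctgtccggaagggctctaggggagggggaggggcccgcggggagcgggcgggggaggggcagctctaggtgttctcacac
Kcne2, chr16:92292139-92292388, plus strand: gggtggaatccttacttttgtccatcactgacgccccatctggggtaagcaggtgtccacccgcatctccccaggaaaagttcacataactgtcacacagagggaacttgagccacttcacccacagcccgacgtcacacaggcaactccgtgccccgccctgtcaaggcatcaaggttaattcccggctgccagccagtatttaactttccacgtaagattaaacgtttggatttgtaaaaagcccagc
Otx2, chr14:48665110-48665359, minus strand: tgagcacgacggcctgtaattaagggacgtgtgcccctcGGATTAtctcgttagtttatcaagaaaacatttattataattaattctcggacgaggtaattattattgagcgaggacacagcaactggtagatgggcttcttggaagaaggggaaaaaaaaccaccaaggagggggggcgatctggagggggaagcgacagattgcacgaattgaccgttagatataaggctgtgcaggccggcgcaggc
Of the 9 windows, 1 held the OTX core, in a start region of Otx2 itself, and this core was found in 6.25% of the 32851 windows of the table. The forkhead core was in none of the 9 windows and in 3.17% of the table. The Kl window had a GC content of 66.8% and 13 CG dinucleotides, against a median of 52.4% and 6 over the table. A match is a description of these letters and says nothing about binding. Ttr, Folr1, Clic6, Enpp2 and Sostdc1 are named without a window.

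Ttr encodes transthyretin, the carrier of thyroxine and retinol that choroid plexus epithelium secretes in quantity. Its level differed widely between mice of the same group. Over the 102 libraries it ran from 0.0702 to 4472 CPM with a median of 4.12 CPM, and it was over 100 CPM in 22 libraries and over 1000 CPM in 13. No CX library reached 100 CPM. Of the HIP libraries 9 were over 100 CPM and 4 over 1000 CPM, and of the CB libraries 13 and 9.

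In CX, Ttr was at 0.0702 to 54.6 CPM with a median of 0.809 CPM. In HIP it ran from 1.89 to 4472 CPM with a median of 28.6 CPM. In CB it ran from 0.109 to 2851 CPM with a median of 8.92 CPM. Every dissected region thus held libraries near 1 CPM, and HIP and CB held libraries that were more than 1000 CPM beside them.

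The spread lay within the groups. At P7, the WT libraries of CB had 0.109, 0.375, 0.723, 4.39, 334 and 1431 CPM of Ttr. The Cul3+/- libraries of the same dataset had 0.49, 725, 1277, 1538, 1882 and 2618 CPM. The ranges of the groups overlapped, while 2 of 6 WT and 5 of 6 Cul3+/- libraries were over 100 CPM.

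In adult HIP the WT libraries had 1.89, 9.89, 34.5, 1441 and 2085 CPM and the Cul3+/- libraries 8.98, 10.0, 15, 26.9 and 230 CPM. In adult CB the WT libraries had 0.462, 2.60, 7.05, 1299 and 2851 CPM and the Cul3+/- libraries 1.98, 10.8, 474, 1075 and 1962 CPM. In adult CX the WT libraries had 0.398, 1.28, 1.33, 2.51 and 3.08 CPM and the Cul3+/- libraries 0.631, 0.685, 0.688, 0.708 and 54.6 CPM. Both genotypes held low and high libraries in HIP and CB, and 1 Cul3+/- library, replicate 4, stood above all others in CX.

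In embryonic HIP a single library carried most of the Ttr. WT replicate 2 had 4472 CPM, while the other WT libraries had 2.59 to 117 CPM. In P7 HIP, Cul3+/- replicate 1 had 4128 CPM and the next library of its group 29.6 CPM. Mice differed in whether high Ttr in HIP went with high Ttr in their other regions. The adult WT mouse with 2085 CPM in HIP (replicate 3) had 0.462 CPM in CB and 1.28 CPM in CX, and the embryonic WT mouse with 4472 CPM in HIP had 2.83 CPM in CB and 2.40 CPM in CX. The adult WT mouse with 1441 CPM in HIP had 2851 CPM in CB and 3.08 CPM in CX, and the P7 Cul3+/- mouse with 4128 CPM in HIP had 1538 CPM in CB and 22.4 CPM in CX. In such bulk samples, more cells of a type and more RNA per cell cannot be told apart.

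**Figure D1:**
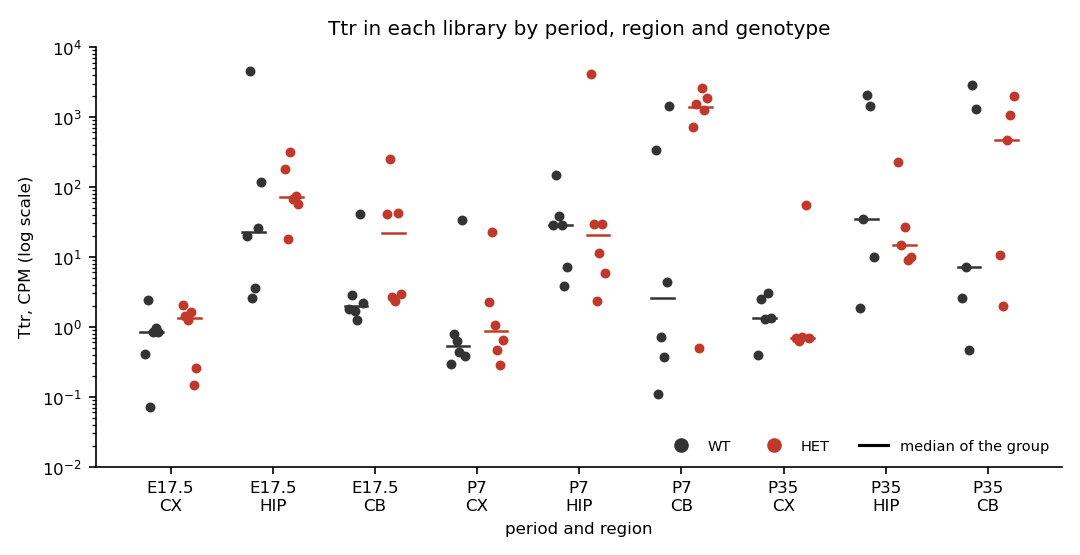
Ttr in each of the 102 libraries (CPM, log axis) by period, region and genotype, where each point is 1 library and HET stands for Cul3+/-. In some groups of HIP and CB the libraries are spread from a few CPM or less to over 1000 CPM, while no CX library reaches 100 CPM.

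The other 9 members were set against Ttr, library by library, to see which of them moved with it. In HIP they all did. Within the HIP libraries of each period, Pearson's r of log2 CPM with Ttr lay between 0.81 and 0.98 over the 9 members and 3 periods, and all 27 relations passed an adjusted p of 0.1 (2-sided permutation tests over 10 or 12 mice, 100000 resamples, Benjamini-Hochberg over 72 relations). Spearman's rho passed in 24 of the 27. Since HIP at E17.5 and at P7 each held 1 library far above the rest, r was also taken without the 2 libraries farthest from the median Ttr, and it was then still over 0.5 for 24 of the 27. The relations that rested on those libraries were Kl at E17.5 (r 0.81, then 0.42) and at P7 (0.83, then 0.26) and Sostdc1 at P7 (0.81, then −0.06).

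In CB the libraries of every period fell into 2 ranges of Ttr, more than 10-fold apart, so r within a CB dataset was taken inside 1 range only. The 7 CB libraries of P7 with 334 to 2618 CPM of Ttr gave r = 0.998 for Folr1, a folate receptor, with rho = 1 and an adjusted p of 0.00143 for r (exact permutation test, 2-sided). The r in these 7 libraries was 0.995 for Sostdc1, 0.988 for Aqp1, 0.982 for Clic6, 0.980 for Kcne2, 0.970 for both Kl and Slc4a5 and 0.949 for Enpp2, with adjusted p between 0.00143 and 0.00952 by the same exact test, and r stayed over 0.8 for these members without the 2 farthest libraries. For Otx2 it was 0.304 (adjusted p = 0.575, exact permutation test). The 8 CB libraries of E17.5 with 1.27 to 2.91 CPM of Ttr gave r between −0.76 (Kcne2) and 0.82 (Clic6), and both of these passed (adjusted p = 0.0494 and 0.0213, exact permutation test), although r was −0.46 for Kcne2 without the 2 farthest. The adult CB libraries, 5 in each range, were too few for r.

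In CX, where Ttr was low, 6 of 27 relations passed by r and 4 by rho. By r these were Clic6 at E17.5 and P35, Kcne2 at P7 and P35, and Kl and Enpp2 at P35. By rho they were Clic6 at E17.5 and P35, Kcne2 at P7, and Folr1 at P7 (rho 0.66, adjusted p = 0.0495, permutation test). Kcne2 in P35 CX had a median of 0.0151 CPM and rests on few counts. For Kl at P35 r fell from 0.77 to −0.11 without the 2 farthest libraries, and for Kcne2 at P7 from 0.82 to 0.41. All members of a dataset were measured in the same libraries, so their relations to Ttr share its errors.

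**Figure D2:**
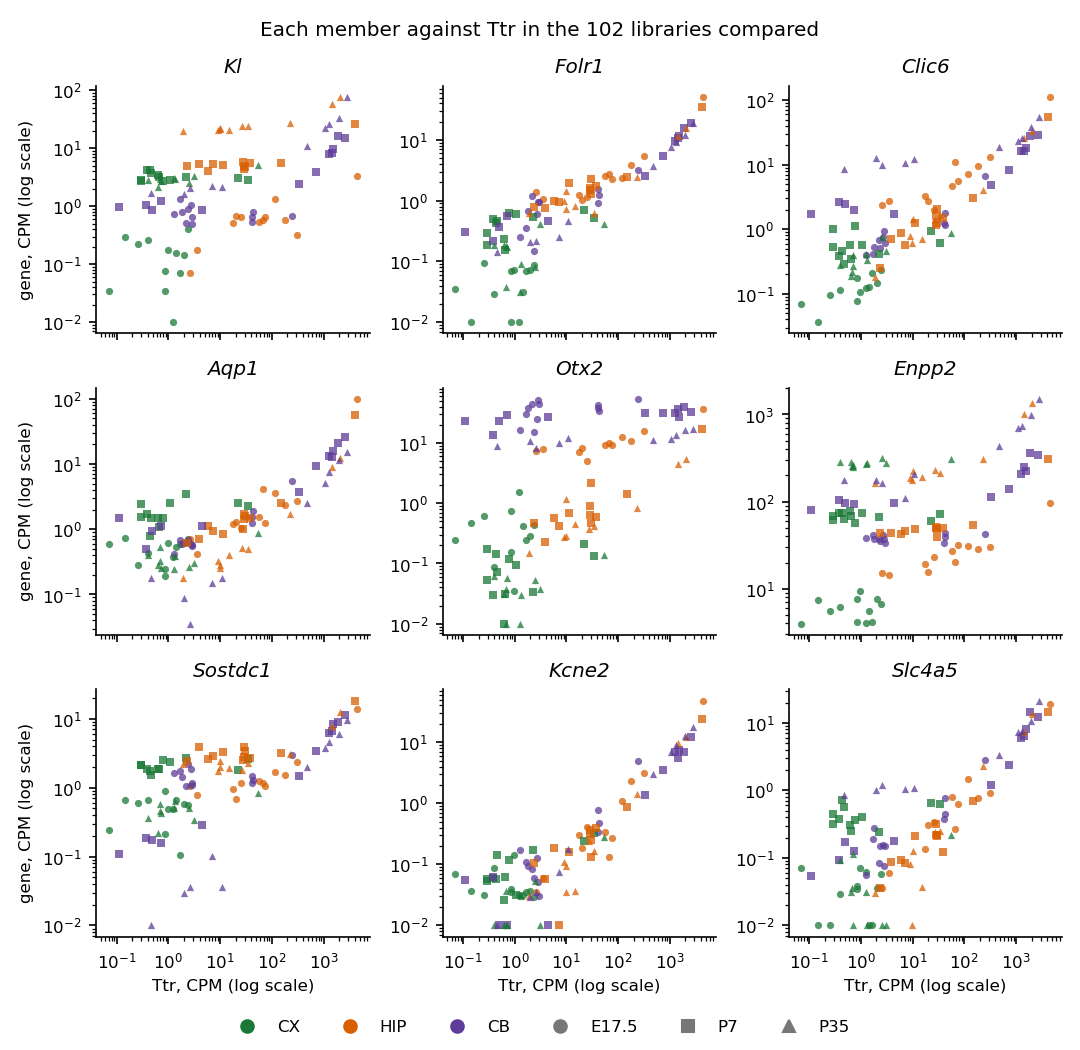
Level of each of the 9 other members (CPM) against Ttr (CPM) in the 102 libraries, both on log axes, with 1 panel for a member, colours for regions and values at 0 drawn at 0.01 CPM. Kcne2 and Slc4a5 fall with Ttr to under 1 CPM in most libraries, while Enpp2 levels off at a height that differs by period and Otx2 stays above 8 CPM in every CB library.

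To describe what was left where Ttr was absent, CPM of each member was fitted on CPM of Ttr with 1 slope for each period and 1 intercept for each region. The intercept is the fitted level at a Ttr of 0, which can differ from the level measured in libraries poor in Ttr. Of the 81 pairs of a member and a dataset, 46 had an intercept over 2 SE above 0, and 32 had one of at least 1 CPM. This count of 32 was 28 with 1 slope for each region and between 30 and 33 with any 1 mouse left out. The count of 46 was 59 with 1 slope for each region. The main fit took all libraries of a period as independent, although each mouse gave 1 per region. It also used 1 residual spread for all regions, so the SE of a region depends on the others. The members differed widely in how much of their level did not scale with Ttr, and they are described in the order of their roles.

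Enpp2 encodes autotaxin, a secreted enzyme that makes lysophosphatidic acid. Of the 9 members it had the highest level at a Ttr of 0 in each of the 9 datasets, in embryonic CB by less than the SE of Otx2. In CX this level was 6.00 CPM (SE 1.11) at E17.5, 67.5 CPM (SE 7.23) at P7 and 275 CPM (SE 15) at P35. In HIP it was 21.9, 39.0 and 216 CPM (SE 1.18, 7.47 and 15.8), and in CB 37.8, 111 and 142 CPM (SE 1.11, 8.33 and 17.9). The measured values at P7 differed from this fit. The P7 library lowest in Ttr had 43.6 CPM of Enpp2 in HIP and 80.2 CPM in CB. In adult CX no library had over 3.08 CPM of Ttr except Cul3+/- replicate 4, with 54.6 CPM. The WT libraries there had 269, 276, 277, 286 and 315 CPM of Enpp2. The Cul3+/- libraries had 249, 254, 261, 282 and 312 CPM, a narrow range with overlapping genotypes. The value of 312 CPM was that of replicate 4. In adult HIP the WT libraries had 163, 178, 215, 1012 and 1351 CPM and the Cul3+/- libraries 189, 190, 226, 233 and 308 CPM, where the 2 highest WT values belonged to the 2 libraries with over 1000 CPM of Ttr.

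Sostdc1 encodes a secreted antagonist of BMP and Wnt signals. At a Ttr of 0 it was at 1.01 CPM (SE 0.099) in HIP at E17.5, 2.84 CPM (SE 0.167) at P7 and 2.31 CPM (SE 0.207) at P35, and at 2.07 CPM (SE 0.161) in CX at P7. In adult CB this level was −0.32 CPM (SE 0.235), which is not above 0. The adult CB libraries had 0, 0.0356, 0.101, 4.56 and 9.66 CPM in WT mice and 0.0295, 0.0361, 1.99, 3.71 and 5.99 CPM in Cul3+/- mice. In adults its values near 0 in CB and near 2 CPM in HIP of libraries poor in Ttr set the regions apart. This was not so at E17.5, where the library lowest in Ttr had 1.63 CPM in CB and 1.06 CPM in HIP.

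Kl encodes klotho, the coreceptor for the hormone FGF23. Its level at a Ttr of 0 was 22.3 CPM (SE 1.19) in adult HIP, 70.8% of the mean level there, and −0.45 CPM (SE 1.34) in adult CB. The adult HIP libraries had 20.2, 21.3, 23.9, 58.2 and 75.9 CPM in WT mice and 20.5, 20.7, 22.5, 24.4 and 27.6 CPM in Cul3+/- mice. In adult CB they were 1.71, 2.10, 2.21, 26.7 and 75.5 CPM in WT and 1.59, 2.17, 10.8, 22.8 and 32.7 CPM in Cul3+/- mice. No adult HIP library was under 20 CPM, whatever its Ttr, while CB libraries poor in Ttr were near 2 CPM. At P7 the level at a Ttr of 0 was 4.78 CPM (SE 0.308) in HIP, 3.22 CPM (SE 0.298) in CX and 1.24 CPM (SE 0.343) in CB, and at E17.5 it was under 1 CPM in all 3 regions.

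Folr1 encodes the folate receptor alpha, which takes folate across the choroid plexus. Its level at a Ttr of 0 was 1.41, 1.34 and 1.03 CPM in HIP at E17.5, P7 and P35 (SE 0.101, 0.152 and 0.143) and under 1 CPM in CX and CB at every period. In P7 CB the WT libraries had 0.219 to 10.8 CPM with a median of 0.519 CPM and the Cul3+/- libraries 0.375 to 19.1 CPM with a median of 10.6 CPM. The ends of these ranges overlapped.

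Aqp1 encodes the water channel of the apical epithelial membrane. At a Ttr of 0 it was at 1.82 CPM (SE 0.479) in CX and 1.36 CPM (SE 0.495) in HIP at P7, and it was under 1 CPM in the other 7 datasets. In adult CB it was at 0.0356, 0.152, 0.178, 7.46 and 15.1 CPM in WT and at 0.0886, 0.18, 2.53, 5.10 and 11.4 CPM in Cul3+/- mice, low and high as Ttr was in the same libraries.

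Slc4a5 encodes a sodium bicarbonate cotransporter and Kcne2 a subunit of potassium channels, both of the epithelial membrane. Their levels at a Ttr of 0 were under 1 CPM in all 9 datasets, between −0.69 and 0.28 CPM for Kcne2 and between −0.16 and 0.88 CPM for Slc4a5. The fitted 0.88 CPM was that of P7 CB, where the library lowest in Ttr had 0.0547 CPM of Slc4a5. Kcne2 in adult CB was at 0, 0.0356, 0.0761, 8.96 and 17.54 CPM in WT and at 0.0295, 0.18, 3.07, 6.83 and 12.8 CPM in Cul3+/- mice. Slc4a5 did not reach 0 there, with 0.853, 1.07, 1.21, 7.64 and 21.4 CPM in WT and 1.0, 1.08, 3.39, 7.21 and 10.7 CPM in Cul3+/- mice. Both genes were low in the libraries low in Ttr.

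Clic6 encodes an intracellular chloride channel protein. In adult CB its level at a Ttr of 0 was 9.77 CPM (SE 0.565), 45.3% of its mean there. The adult CB libraries had 8.42, 10.0, 10.6, 25.9 and 55.5 CPM in WT and 12.3, 12.5, 18.8, 23.5 and 38.3 CPM in Cul3+/- mice, so no library was under 8 CPM. In adult HIP the WT libraries had 0.18, 0.609, 1.65, 26.2 and 33.4 CPM and the Cul3+/- libraries 0.703, 0.784, 1.40, 1.46 and 4.12 CPM. Adult CB and adult HIP thus differed in Clic6 where Ttr was low. At E17.5 the order was the other way round, with 3.85 CPM (SE 0.375) at a Ttr of 0 in HIP and 0.53 CPM (SE 0.353) in CB.

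Otx2 encodes a homeobox transcription factor that is needed for choroid plexus to form and that is also known from the granule cell precursors of the cerebellum. In CB its level at a Ttr of 0 was 36.0 CPM (SE 2.13) at E17.5, 25.4 CPM (SE 0.983) at P7 and 9.93 CPM (SE 0.266) at P35, which made 99.4%, 87.8% and 83.0% of its mean. In embryonic HIP it was 8.71 CPM (SE 2.26), and in the other 5 datasets it was under 1 CPM. In P7 CB the WT libraries had 13.8 to 36.1 CPM with a median of 28.2 CPM and the Cul3+/- libraries 23.5 to 39.0 CPM with a median of 31.7 CPM, while Ttr ran from 0.109 to 2618 CPM in the same libraries. In adult HIP, Otx2 was at 0.15, 0.287, 0.414, 4.56 and 5.40 CPM in WT and at 0.27, 0.377, 0.444, 0.831 and 1.17 CPM in Cul3+/- mice. In adult CB, Otx2 was at 8.88 CPM in the library with the lowest Ttr and at 17.4 CPM in that with the highest, and in CB alone it had 2.70 CPM for each 1000 CPM of Ttr (SE 0.403). In embryonic CB it ran from 15.4 to 53.9 CPM.

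**Figure D3:**
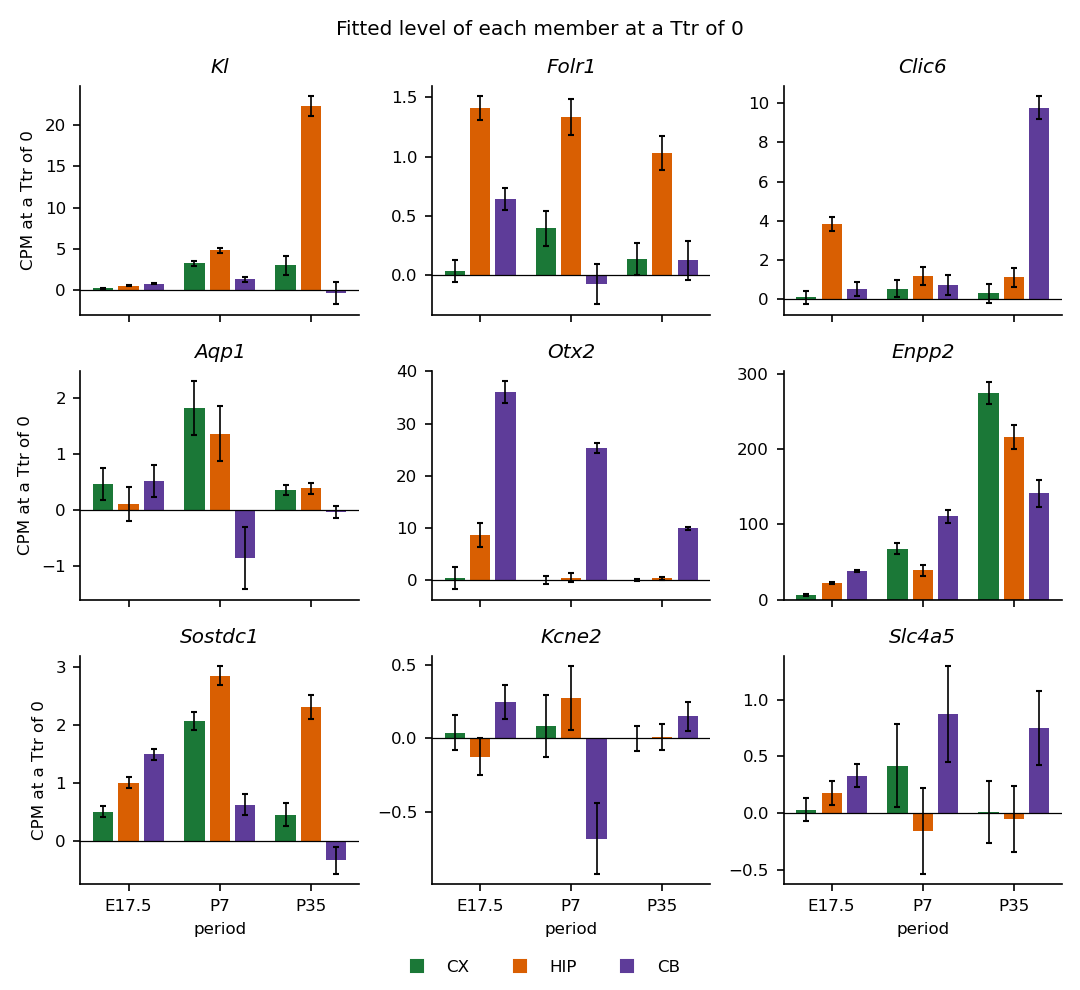
Level of each of the 9 other members at a Ttr of 0 (CPM) in the 9 datasets, where bars give the intercept of the linear fit and error bars its SE. Enpp2 stands in every dataset, Otx2 in CB, Kl in adult HIP and Clic6 in adult CB, while Kcne2 and Slc4a5 stay under 1 CPM.

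The fitted ratio to Ttr also differed between periods. Enpp2 had 16.6 CPM for each 1000 CPM of Ttr at E17.5 (SE 0.911), 80.3 CPM at P7 (SE 5.06) and 493 CPM at P35 (SE 12.6). Kl had 0.612 CPM at E17.5 (SE 0.058), 5.46 CPM at P7 (SE 0.209) and 23.8 CPM at P35 (SE 0.95). Aqp1 went the other way, with 22.1, 11.9 and 5.56 CPM (SE 0.235, 0.336 and 0.078). Otx2 had 6.41, 4.31 and 2.65 CPM (SE 1.74, 0.598 and 0.188), Folr1 11, 7.92 and 6.75 CPM, Clic6 24.0, 12.4 and 15.4 CPM, Kcne2 10.8, 5.31 and 6.24 CPM, Sostdc1 2.88, 4.04 and 3.82 CPM and Slc4a5 4.23, 4.16 and 6.25 CPM. These ratios were not tested between periods, and a change in Ttr per cell would move all of them.

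The values at E17.5 leaned on HIP of WT replicate 2, the only embryonic library over 1000 CPM of Ttr. Without this mouse the ratio at E17.5 was −0.019 CPM for Kl, 11.7 CPM for Aqp1, 38.0 CPM for Enpp2 and 53.0 CPM for Otx2, and it was 31.1 CPM for Clic6, 13.8 CPM for Kcne2, 12.7 CPM for Folr1, 5.98 CPM for Slc4a5 and 5.01 CPM for Sostdc1. At P35 the ratio for Kl was between 21.2 and 25.2 CPM and for Enpp2 between 476 and 506 CPM with any 1 mouse left out.

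**Figure D4:**
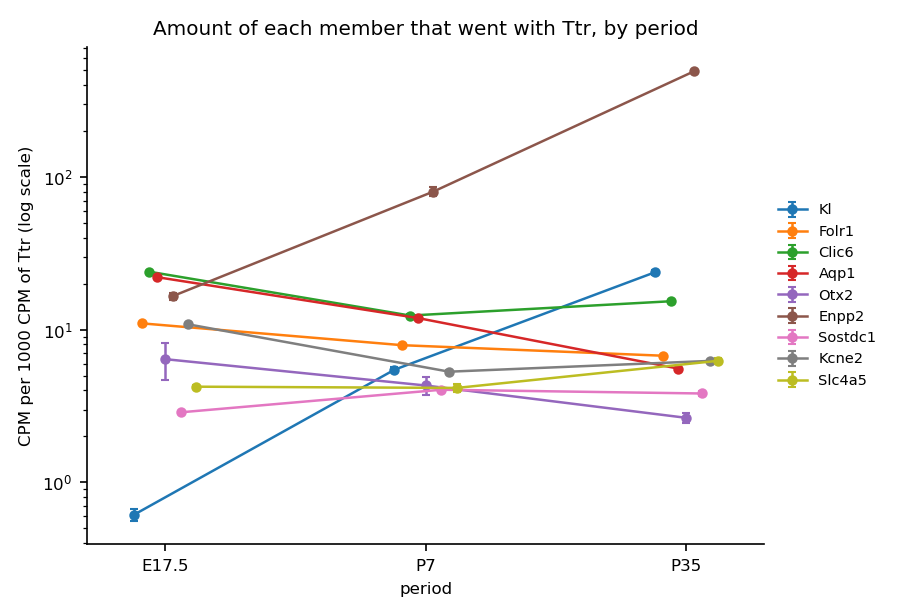
CPM of each of the 9 other members for each 1000 CPM of Ttr (log axis) at E17.5, P7 and P35, with bars for the SE. Enpp2 and Kl lie higher at each later period and Aqp1 lower.

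Per kb of exon, the members can also be set against each other. In adult CX the median level of Enpp2 was 47.9 CPM per kb, and that of Ttr was 0.838 CPM per kb. In adult CB the median of Ttr was 204 CPM per kb, that of Enpp2 55.4 CPM per kb, and those of Clic6 and Otx2 3.99 and 2.68 CPM per kb. In P7 CB the medians were 446 CPM per kb for Ttr, 21.7 CPM per kb for Enpp2 and 7.17 CPM per kb for Otx2. The ranges of Clic6 and Otx2 overlapped in adult CB, where Clic6 was at 8.42 to 55.5 CPM and Otx2 at 8.15 to 17.4 CPM over 10 libraries.

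Regions were then compared within each period in WT mice, with mouse as a block, by edgeR's quasi-likelihood test over all genes. The 3 comparisons of a period share libraries. Over the 3 periods 53 of 81 tests of a member were called at an adjusted p of 0.1, but most genes of the table differed between regions as well. At E17.5, 8 of 8 members that passed the filter on low counts were higher in HIP than in CX, where 46.5% of all genes tested were called. Between CB and CX 7 of 8 were called, all higher in CB, against 61.7% of genes, and between CB and HIP 5 of 8, 1 higher and 4 lower in CB, against 49.5%. At P7 the calls were 4 of 10 between HIP and CX against 57.0% of genes, 6 of 10 between CB and CX against 82.9%, and 5 of 10 between CB and HIP against 78.2%, shares at or below those of all genes. In adults 8 of 9 members were higher in HIP than in CX against 51.5% of genes, 7 of 9 were higher in CB than in CX against 75.4%, and 3 of 9 differed between CB and HIP against 75.1%.

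Otx2 differed in all 9 comparisons. It was higher in CB than in CX by a log2 value of 7.15 at E17.5 (SE 0.508, adjusted p = 7.92e-08, edgeR), 8.06 at P7 (SE 0.391, adjusted p = 3.69e-11) and 8.34 at P35 (SE 0.912, adjusted p = 3.36e-06), and higher in CB than in HIP by 1.81, 5.30 and 3.01. The SE of Ttr was far larger. Its log2 difference between HIP and CX was 7.40 at E17.5 (SE 1.62, adjusted p = 0.00281) and 7.79 at P35 (SE 2.33, adjusted p = 0.0166), and at P7 it was 3.88 (SE 2.40, adjusted p = 0.195), with no call for Ttr in the 3 comparisons of P7. In CB against CX at E17.5 it was 3.91 (adjusted p = 0.0644), and without WT replicate 5, whose CB library had 41.5 CPM, it was 2.61 (adjusted p = 0.258). It was also not called without WT replicate 1 or 3 (adjusted p = 0.105 and 0.123).

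Of the secreted and receptor genes, Enpp2 was higher in CB than in CX at E17.5 by 2.72 (SE 0.346, adjusted p = 1.79e-05, edgeR) and at P7 by 0.77 (SE 0.176, adjusted p = 0.000938), and at P7 it was lower in HIP than in CX by a log2 difference of −0.53 (adjusted p = 0.022). Kl was higher in adult HIP than in adult CX by 3.67 (SE 0.799, adjusted p = 0.00252), and Sostdc1 by 3.38 (SE 1.02, adjusted p = 0.0175). At P7, Kl and Sostdc1 were lower in CB than in HIP by log2 differences of −1.42 (adjusted p = 0.00246) and −1.71 (adjusted p = 0.0316). The difference of Sostdc1 was −1.34 and not called (adjusted p = 0.113) without the mouse that is WT replicate 3 in CB, and −2.90 without WT replicate 6 of CB. In Cul3+/- mice these differences of Kl and Sostdc1 were 0.29 and 0.41 and not called, and the difference between genotypes was not tested for this contrast alone.

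Of the channels and transporters, Clic6 was lower in CB than in HIP at E17.5 by a log2 difference of −3.27 (SE 0.653, adjusted p = 0.00116, edgeR) and higher in CB than in HIP at P7 by 1.58 (SE 0.472, adjusted p = 0.00718), and in adults its difference was 1.76 (SE 0.84, adjusted p = 0.0786). Slc4a5 was higher in adult CB than in adult CX by 8.03 (SE 1.70, adjusted p = 0.000973). Kcne2 passed the filter on low counts at P7 only, and there its differences were 1.47, 2.37 and 0.91, of which that between CB and CX was called (adjusted p = 0.0886). At E17.5 the count between CB and HIP was 3 without WT replicate 1 or without WT replicate 6, and in adults it was 1 without WT replicate 1 or 2.

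Periods were compared in WT mice within each region by the same test, with different mice at each period and the P7 mice shared by both comparisons. Of 56 tests of a member 39 were called. In CX 8 of 8 members were higher at P7 than at E17.5, against 81.9% of genes called in either direction, and the largest differences were those of Kl (log2 4.20, SE 0.327, adjusted p = 1.52e-09, edgeR) and Enpp2 (3.43, SE 0.165, adjusted p = 3.23e-12). From P7 to P35 in CX 5 of 8 were called against 67.7% of genes. Enpp2 rose by a further 2.05 (SE 0.154, adjusted p = 1.83e-09), and Slc4a5, Aqp1, Sostdc1 and Folr1 fell by 3.96, 2.34, 2.12 and 1.45 on the log2 scale. CX held little Ttr, so these changes were measured with Ttr between 0.0702 and 34.1 CPM in the WT libraries.

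In HIP, Kl rose by 2.24 from E17.5 to P7 (SE 0.519, adjusted p = 0.000838, edgeR) and by 2.90 from P7 to P35 (SE 0.472, adjusted p = 4.17e-05). Enpp2 rose by 3.60 from P7 to P35 (SE 0.604, adjusted p = 5.93e-05). In the first step 8 of 10 members were called, 1 higher and 7 lower at P7, against 78.0% of genes, and in the second 7 of 10, all higher at P35, against 62.7%. These counts turned on single libraries. Without WT replicate 2 of E17.5 the first count was 4, and the log2 change of Ttr went from −4.21 (adjusted p = 0.0462) to 0.31 (adjusted p = 0.840). Without the adult WT replicate 3 the second count was 2, and without adult WT replicate 5 or P7 WT replicate 5 or 6 it was 4. In Cul3+/- mice 7 of 10 members differed in the opposite direction in the first step and 8 of 10 in the second, Kl and Enpp2 being among those that kept their direction, and this difference between genotypes was not tested.

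In CB 6 of 10 members were called between E17.5 and P7 (5 higher, 1 lower at P7) against 71.2% of genes, and 5 of 10 between P7 and P35 (4 higher, 1 lower at P35) against 79.4%. Otx2 fell by 1.19 on the log2 scale from P7 to P35 (SE 0.275, adjusted p = 0.000709, edgeR), and Enpp2 rose by 1.67 and then by 2.15 (SE 0.504 and 0.522, adjusted p = 0.00731 and 0.0011). Kl rose by 3.15 (SE 0.860, adjusted p = 0.00282) and Clic6 by 2.21 (SE 0.582, adjusted p = 0.00218) from P7 to P35. Without adult WT replicate 5, the CB library richest in Ttr, the differences from P7 to P35 were 1.75 for Kl, 1.52 for Clic6 and 1.29 for Enpp2, and all 3 were still called, and with any other mouse left out those of Kl and Clic6 ran up to 4.05 and 3.09. In Cul3+/- mice the differences of Kl and Clic6 were 0.65 and 0.33 and not called, and 6 of 10 members differed in the opposite direction in this step, which was not tested between genotypes. Without P7 WT replicate 6, with 1431 CPM of Ttr in CB, the count between E17.5 and P7 was 3.

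Genotypes were compared within each of the 9 datasets. In none of 73 tests was a member called at an adjusted p of 0.1 by edgeR's quasi-likelihood test, and none was called by DESeq2. At an unadjusted p under 0.05 there were 8 of 10 members in P7 CB, 8 of 8 in P35 HIP, 5 of 8 in P7 HIP, 3 of 8 in E17.5 CB, 2 of 10 in E17.5 HIP, 1 of 6 in P35 CX and 0 in the other 3 datasets. Of all genes tested 4.89% had such a p in P7 CB, 6.25% in P35 HIP, 5.05% in P7 HIP, 3.5% in E17.5 CB, 2.29% in E17.5 HIP and 3.66% in P35 CX, and 14.4% in P35 CB, where no member had one. At the adjusted p of 0.1, 1 gene of all those tested was called in each dataset. This is 0.00568% in E17.5 CB, 0.00603% in E17.5 CX, 0.00586% in E17.5 HIP, 0.00570% in P7 CB, 0.00566% in P7 CX, 0.00563% in P7 HIP, 0.00584% in P35 CB, 0.00569% in P35 CX and 0.00584% in P35 HIP. Although no member passed, in 4 datasets all tested members lay on 1 side of 0, and their values are given for these.

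In P7 CB all 10 members were higher in Cul3+/- mice, with a median log2 fold change of 2.08. Ttr differed by 2.19 (SE 1.66, adjusted p = 0.994, edgeR), Kl by 1.89 (SE 0.662, adjusted p = 0.927), Clic6 by 1.83 (SE 0.631, adjusted p = 0.926) and Enpp2 by 0.93 (SE 0.340, adjusted p = 0.932). Otx2, whose r with Ttr was the lowest in the 7 P7 CB libraries rich in Ttr, differed by 0.24 (SE 0.188, adjusted p = 0.994). The direction was kept for all 10 without any 1 mouse, and the median ran up to 3.42 without WT replicate 6, the WT library richest in Ttr. RUVs takes out 3 factors of unwanted variation, and it was run with upper-quartile scaling and a likelihood ratio test. With these 3 changes together, Kl, Clic6, Aqp1 and Sostdc1 were among 65 of 17532 genes called there. The median of the members was then 1.17 and the value of Ttr 0.75. The list of other choroid plexus genes went with the members, 26 of 26 tested being higher in Cul3+/- mice with a median of 1.01 and none called. The ependyma list had 14 of 14 higher with a median of 0.77, and the meninges list 14 of 14 with a median of 0.12. The summed ependyma level was 24.1 to 48.1 CPM in WT and 30.8 to 70.3 CPM in Cul3+/- libraries, and its part in the result was not tested.

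In P35 HIP all 8 members that passed the filter were lower in Cul3+/- mice, with a median of −1.90. Ttr differed by −3.59 (SE 1.51, adjusted p = 0.796, edgeR), Sostdc1 by −1.37 (SE 0.461) and Kl by −0.78 (SE 0.327), each with the same adjusted p. The direction was kept for all 8 without any 1 mouse, while the median was −1.21 without WT replicate 3, the library with 2085 CPM of Ttr. RUVs with its likelihood ratio test called Kl, Enpp2 and Sostdc1 among 195 of 17123 genes. The median over the members was then −0.82 and the value of Ttr −1.78. Of the other choroid plexus genes 22 of 23 were lower with a median of −0.66, and of the ependyma genes 9 of 14 were higher with a median of 0.04.

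In several other datasets 1 library set the direction. In P35 CX 4 of 6 members were higher in Cul3+/- mice (median 0.15), Ttr by 2.78. Without Cul3+/- replicate 4, 5 of 6 were lower (median −0.13), Ttr by −1.30. In P7 CX 6 of 8 were lower (median −0.08), Ttr by −0.44. Without WT replicate 5, 5 of 8 were higher (median 0.03), Ttr by 3.17. In E17.5 HIP 10 of 10 members were lower in Cul3+/- mice with a median of −1.60, Ttr by −2.73 (SE 1.57, adjusted p = 0.941, edgeR). Without WT replicate 2, 9 of 10 were higher with a median of 0.48, and the value for Ttr was 1.80. In this dataset 19 of 23 other choroid plexus genes were lower (median −0.70), as were 11 of 12 ependyma genes (median −0.46), while 13 of 14 meninges genes were higher (median 0.65). In P7 HIP 8 of 8 were higher with a median of 2.29, Ttr by 4.05 (SE 1.70, adjusted p = 0.833), and without Cul3+/- replicate 1, 6 of 8 were lower with a median of −0.18 and a value of −1.43 for Ttr. There 26 of 26 other choroid plexus genes were higher (median 0.93), 14 of 14 ependyma genes (median 0.54) and 13 of 14 meninges genes (median 0.31). The summed ependyma level in P7 HIP was 74.9 to 111 CPM in WT and 105 to 188 CPM in Cul3+/- libraries, and the part of these lists in the result was not tested. In adult CB 9 of 10 members were lower with a median of −0.29, and without WT replicate 5 10 of 10 were higher with a median of 0.83 and a value of 1.08 for Ttr. With the replicate number as a block 9 of 10 were higher there (median 0.26), without Cul3+/- replicate 1 or 2 5 and 6 of 10 (median 0.02 in both), and with both of the omitted adult mice put back by their labels 9 of 10 were higher with a median of 0.19. In E17.5 CB 7 of 8 members were higher in Cul3+/- mice (median 0.46), Ttr by 2.74. Without Cul3+/- replicate 2, 5 of 8 were still higher (median 0.14), Ttr by 1.12. The median over all genes tested was within 0.007 of 0 in each dataset.

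Whether the genotype difference itself varied between regions was tested in each period with mouse as a block. No member was called in any of 30 tests by edgeR's quasi-likelihood test, with adjusted p of 0.962 to 0.998 at E17.5, 0.826 to 0.833 at P7 and 0.441 to 0.907 at P35. At an unadjusted p under 0.05 there were 0 members at E17.5, 3 at P7 (Kl, Clic6 and Sostdc1) and 0 at P35, against 2.5%, 4.57% and 15.8% of all genes tested. At the adjusted p of 0.1, 0% of all genes were called at E17.5, 0% at P7 and 0.00525% at P35.

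**Figure D5:**
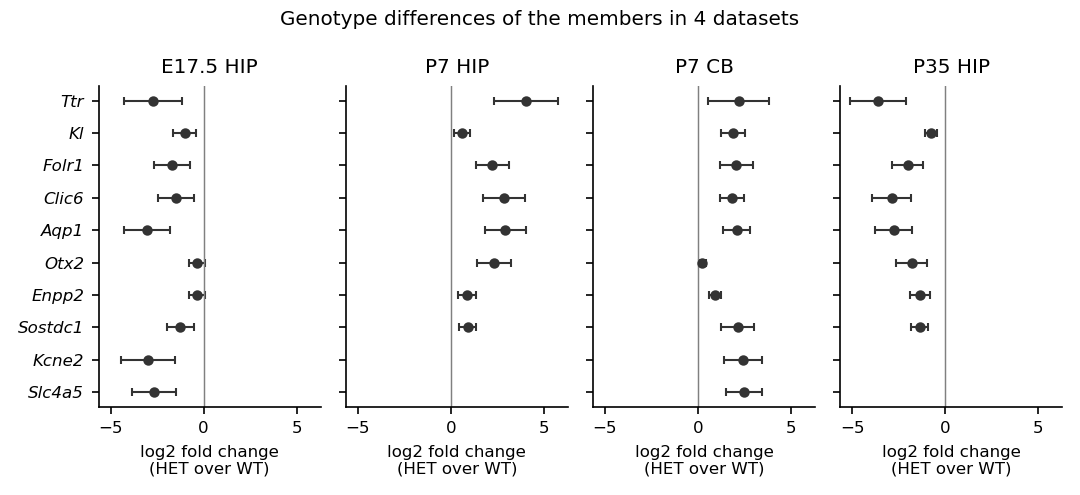
Log2 fold change of Cul3+/- (HET) over WT mice for each tested member in E17.5 HIP, P7 HIP, P7 CB and P35 HIP, with bars for the SE and a line at 0. Members of a dataset lie on 1 side of 0, above it in P7 and below it in the other 2, with none called.

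The genes most like each member were sought among all genes with a mean of at least 1 CPM, by Pearson's r of log2 CPM over the 102 libraries after the mean of each group was taken out. For Ttr these were Mfrp (r 0.89), 1500015O10Rik (0.86) and Cldn2 (0.86), the last a claudin of leaky epithelia. Kcne2 was nearest to Mfrp (0.93) and Tmem72 (0.92), Aqp1 to Tmem72 (0.91) and Mfrp (0.90), Slc4a5 to Tmem72 (0.91), Folr1 to Mfrp (0.90) and Clic6 to Kcnj13 (0.89), a potassium channel gene. Enpp2 was nearest to Abca4 (0.89) and F5 (0.88), Sostdc1 to Car12 (0.87), a carbonic anhydrase gene, and Kl to Cldn1 (0.86) and Car12 (0.84). Otx2 had the weakest neighbours, Wfikkn2 (0.75), Slc4a2 (0.73) and Kcnj13 (0.70).

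The 30 places, 3 for each of the 10 members, were held by 12 genes, with Mfrp in 6, Tmem72 in 5, Cldn2 in 4 and Kcnj13 in 3 of them. Of the 12 genes 5 were on the list of other choroid plexus genes by symbol, and 6 with 1500015O10Rik, which the RefSeq gene table gives as a synonym of Ecrg4, a gene of that list. By the same measure the members themselves ran with Ttr in the order Kcne2 (r 0.91), Folr1 (0.89), Aqp1 (0.87), Slc4a5 (0.87), Sostdc1 (0.82), Clic6 (0.81), Enpp2 (0.77), Kl (0.74) and Otx2 (0.58). Taking out the group means left both ranges of Ttr in CB, so these r also hold the gap between them. All these values come from the same libraries and share their depth and normalization, and they describe likeness of pattern alone.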

How the data were processed

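RNA was measured in CX, HIP and CB of WT and Cul3+/- mice at E17.5, P7 and P35. The libraries were stranded and made from ribosome-depleted total RNA, paired-end. The submitters' processing notes name cutadapt 1.14, STAR 2.5.3a, RSEM 1.3 and GRCm38.p5, and the authors deposited RSEM expected counts per gene, not normalized, with no counts for reads outside genes. An expected count can divide a read among transcripts, and ribosome depletion keeps unspliced RNA, which both affect low genes.

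Expected counts were rounded. In R 4.3.3 with edgeR 4.0.16, genes passed filterByExpr (minimum count 10, minimum total 15), libraries were TMM-normalized, and quasi-likelihood tests were adjusted by Benjamini-Hochberg over all genes tested, with calls at 0.1. The SE is the fold change divided by the root of F. Genotype fits had no covariate, region and interaction fits had mouse as a block, and period fits none. CPM used TMM over 102 libraries (20859 genes), log2 CPM a prior count of 2. Correlations were permuted in scipy 1.17.1, and counting error was not modelled in the linear fits. Intervals over mice cover the spread between these mice alone.

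The members and lists were chosen with earlier results of these data known. The named genes are the 10 members, Cul3, and for each member the 3 other genes with the highest group-centred r. Alternatives were DESeq2 1.42.0, upper-quartile scaling, no low-count filter, RUVs with 3 factors, replicate blocks, Cul3+/- in place of WT mice, the 2 adult mice put back, CPM for log2 CPM, 1 slope for each region, and each mouse left out. The RUVs fits also used upper-quartile scaling, and a likelihood ratio test in place of the quasi-likelihood test. The tests were tried on simulated counts. Same-numbered libraries of both genotypes deviated together in E17.5 CX (correlations 0.113 to 0.757 over 6 pairs), and no member was called there with or without the replicate block. Of 28 other choroid plexus genes 27 were found by symbol and tested as a list. The last, Ecrg4, stands in the table under its synonym 1500015O10Rik and was not in the list's counts.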

Additional observations from a re-analysis of the deposited data

Results flagged for a closer look

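Of 180 sets of values (10 members in 18 groups), 26 held a highest or lowest library whose gap to the next, as a share of the range of the group, passed Dixon's 95% critical value. The gaps were taken on the log2 CPM scale, so a library such as HIP of E17.5 WT replicate 2 for Ttr (4472 CPM, the next 117 CPM) was not among them, and levels are printed here as CPM. Chance gives about 1 in 20 groups, and the members share their libraries, so these 26 are not independent.

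Most of them belonged to 3 libraries. HIP of P7 Cul3+/- replicate 1 stood high in 9 members. Its Ttr was 4128 CPM (the next library 29.6 CPM), Kl 26.1 CPM (5.08), Folr1 35.1 CPM (2.26), Clic6 55.4 CPM (2.02), Aqp1 55.5 CPM (1.70), Enpp2 310 CPM (48.5), Sostdc1 18.4 CPM (3.91), Kcne2 24.2 CPM (0.253) and Slc4a5 14.3 CPM (0.217). CB of P7 Cul3+/- replicate 3 stood low in 5, with 0.49 CPM of Ttr (the next library 725 CPM), 0.375 CPM of Folr1 (5.38), 0.923 CPM of Aqp1 (9.26), 0.173 CPM of Sostdc1 (3.40) and 0 CPM of Kcne2 (3.49). HIP of E17.5 WT replicate 2 stood high in Folr1 with 50.6 CPM (2.39), in Clic6 with 111 CPM (7.07) and in Sostdc1 with 13.8 CPM (1.69).

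The other 9 were scattered. CB of E17.5 WT replicate 5 had 41.5 CPM of Ttr (the next library 2.83 CPM) and 1.52 CPM of Aqp1 (0.681). CX of P35 Cul3+/- replicate 4 had 54.6 CPM of Ttr (0.708) and 0.277 CPM of Kcne2 (0.0361). CX of P7 WT replicate 5 had 34.1 CPM of Ttr (0.78), CB of P7 WT replicate 6 had 251 CPM of Enpp2 (112), CB of P35 Cul3+/- replicate 6 had 16.1 CPM of Otx2 (11.9), HIP of P35 Cul3+/- replicate 1 had 3.05 CPM of Sostdc1 (1.99), and CX of E17.5 Cul3+/- replicate 4 was low in Sostdc1 with 0.104 CPM (0.495).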

How the results depend on the processing

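Under DESeq2, upper-quartile scaling and no low-count filter, no count of members called in the report moved by over 1.5 times and no value given for a member changed its direction. Counts that moved were those of the genotype tests with RUVs (4 members in P7 CB and 3 in P35 HIP, from 0), and those in Cul3+/- in place of WT mice: 10 for CB against CX and 8 for CB against HIP at P7, 5 for HIP against CX and 6 for CB against HIP at P35, and 5 for P7 against E17.5 in HIP. Of all genes RUVs called 65 of 17532 in P7 CB and 195 of 17123 in P35 HIP. In the comparisons of Cul3+/- mice, in the order given, 14823 and 13904 of 18546 genes were called at P7. At P35 these were 10766 and 14043 of 18188 genes, and for P7 against E17.5 in HIP 14544 of 18357. The cause of the moved counts was not tested. Without the replicate block of the mouse the count for CB against HIP at P35 was 1. With the replicate number as a replicate block, whose numbers were not shown to pair the mice outside embryonic CX, the period counts in HIP were 3 and 2, and Ttr differed between genotypes by 1.86 in E17.5 HIP and by −0.23 in P7 HIP, both reversed, as they were with RUVs (0.084 and −0.54). The replicate block called no member between genotypes.

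In Cul3+/- mice the reversed values were 0.29 for Kl and 0.41 for Sostdc1 (CB against HIP at P7) and 2.54 and −3.56 for Ttr in HIP (P7 against E17.5 and P35 against P7). With 1 slope for each region, the CPM for each 1000 CPM of Ttr turned negative for Kl in E17.5 CB (−0.621) and P7 CX (−13.7), Enpp2 in P7 CX (−22.7), and Sostdc1 (−17.5) and Kcne2 (−12.9) in E17.5 CX, where Ttr spans a narrow range. With each mouse left out, the members called ranged from 3 to 5 (E17.5 CB against HIP), 1 to 3 (P35 CB against HIP), 4 to 8 and 2 to 10 (the 2 periods in HIP) and 3 to 8 (P7 against E17.5 in CB). The genotype difference of Ttr ranged from −3.31 to 1.80 in E17.5 HIP and from −1.43 to 5.04 in P7 HIP, its period difference in HIP from −5.20 to 0.31 for P7 against E17.5, and the E17.5 value of Kl for each 1000 CPM of Ttr from −0.019 to 0.627. Members under 1 CPM rest on few counts, which limits what their levels can show.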

Other observations

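The 2 adult mice left out of the comparisons held the same kind of libraries. The mouse labelled WT had 1.70 CPM of Ttr in CX, 8.24 CPM in HIP and 988 CPM in CB, and the mouse labelled Cul3+/- had 1.96, 5.10 and 2740 CPM. Their CB libraries had 16 and 18.6 CPM of Otx2, 28.1 and 59.5 CPM of Kl and 27 and 59.7 CPM of Clic6. Their HIP libraries had 23.7 and 21.3 CPM of Kl beside those low values of Ttr.

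The names of the embryonic mice carry 1 of 3 prefixes, whose meaning the labels do not give. In CB, Otx2 was at 15.4 to 30.0 CPM in the 4 mice of prefix S3 and at 34.6 to 53.9 CPM in the other 8. In CX, Enpp2 was at 3.97 to 4.14 CPM in the 4 mice of prefix S3 and at 5.57 to 9.39 CPM in the other 8. Each prefix held mice of both genotypes.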
